A study of Paracentrotus lividus with 19 samples.

Results

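The genes described here are 186 named transcripts of the sea urchin Paracentrotus lividus that were abundant in unexposed embryos and whose mean level stayed almost the same whichever metal the embryos had been given. They were chosen from a deposited table of 63389 features by 3 criteria. A feature had to carry a gene name, had to reach a mean of 20 CPM (counts divided by the total of the library and scaled by 1e+06) in the controls, and the largest of the 5 treatment means could be at most 1.25 times the smallest. Of 574 features with a gene name, 306 reached the CPM minimum, and 244 remained once the names that the rule leaves out (metallothionein, actins, transporters and others) were removed. Of these 244, 186 were within the ratio and 58 were above it, and the 186 carried 159 different names. The treatment means therefore chose the members, and comparisons of the treatments below are a description that supports nothing; tests are read only between sets and for the set-by-treatment terms.

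The 19 libraries were made from poly(A)-selected RNA of pools of about 6000 whole embryos, harvested 24 h after fertilization. Control embryos (4 libraries) received no metal. The others developed with Fe2O3 nanoparticles (4 libraries), with the iron salt FeCl3 (4), with ZnO nanoparticles (3) or with the zinc salt ZnSO4 (4). As labelled, iron was given at 5e-05 M or 4 mg per L and zinc at 1e-05 M or 0.8 mg per L; the agreement of the molar with the mass values was not checked. Titles place each library in a set called F1 (9 libraries), F2 (5) or F3 (5). F2 and F3 hold 1 library of each treatment, and F1 holds 2 of each except ZnO, of which it has 1. What a set stands for is not labelled, and no label says that libraries of a treatment had cultures of their own. The p-values therefore cover only the spread among these libraries, which may be technical. No strain, parent or sex is named, and all groups were harvested at the same time after fertilization.

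Transcripts of this kind are the usual candidates for reference genes, against which quantitative PCR measurements of other genes are scaled. Ribosomal proteins, translation factors, histone variants, spliceosome subunits, respiratory chain subunits and ubiquitin serve functions that nearly all cells need. A reference must be stable across every source of variation in an experiment, not only across the treatment of interest.

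Library totals ran from 24438369 to 32801015 counts. The members together took 6.03% to 7.31% of a library, and the lowest count of any member in any library was 292. Counting error weighs more on the members with the lowest counts, and it was not separated from other spread between libraries. Control means ran from 20.3 CPM (GALT) to 14911 CPM (NU5M.1.2), with a median of 72.8 CPM. Of the members, 116 lay under 100 CPM. The tissue label was checked with named markers, of which 7 were found: the gut marker ENDO16 (176 to 894 CPM over the libraries), the skeleton genes SM37 (250 to 373), PM27 (158 to 253) and SM30 (5.44 to 19.8), the aboral ectoderm gene ARS (1374 to 2648), the apical plate gene NK2.1 (2.90 to 18.8) and the blastula protease BP10 (13.2 to 181). In whole embryos, fewer cells of a type and less RNA per cell cannot be told apart.

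Across the 5 treatments the members' means were nearly flat, as the rule required. The ratio of the largest to the smallest treatment mean had a median of 1.12 and ran from 1.02 in ECASTPDI.2.2 to 1.247 in H11E. Just inside the limit lay H2BE1 at 1.243, PAK1 at 1.245 and H11E, and just outside it H2A.2.2 at 1.259, UBE2N at 1.26 and TBB4 at 1.261. At the CPM limit, GALT (20.3), RAG1L.2.2 (20.4) and ZN12 (20.5) were the lowest members, while TBP (19.5), CDYL2 (19.6) and MIPEP (19.6) fell just short. The highest mean belonged to ZnO for 55 members, to ZnSO4 for 44, to control for 31, to FeCl3 for 31 and to Fe2O3 for 25. The lowest mean belonged to ZnO for 58, FeCl3 for 39, ZnSO4 for 38, Fe2O3 for 27 and control for 24.

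Flatness of this degree was common among abundant transcripts. Of the 244 named features that the rule could have taken, 76.2% were within the ratio, and of all 8658 features at the same control level, named or not, 76.7% were. In the edgeR fit with terms for set and treatment, the median absolute log2 difference of the members from control was 0.03 with Fe2O3, 0.05 with FeCl3, 0.08 with ZnO and 0.08 with ZnSO4. Over all abundant features the same medians were 0.04, 0.06, 0.10 and 0.11. At an adjusted p under 0.05, 0 members differed from control with Fe2O3 (0% of all features did), 0 with FeCl3 (0.0270% of all features), 2 with ZnO (2.09% of all features) and 8 with ZnSO4 (5.42% of all features). At an unadjusted p under 0.05 the members numbered 0, 6, 23 and 36, and nothing is read from any of these counts because the rule used the same contrasts.

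**Figure D1:**
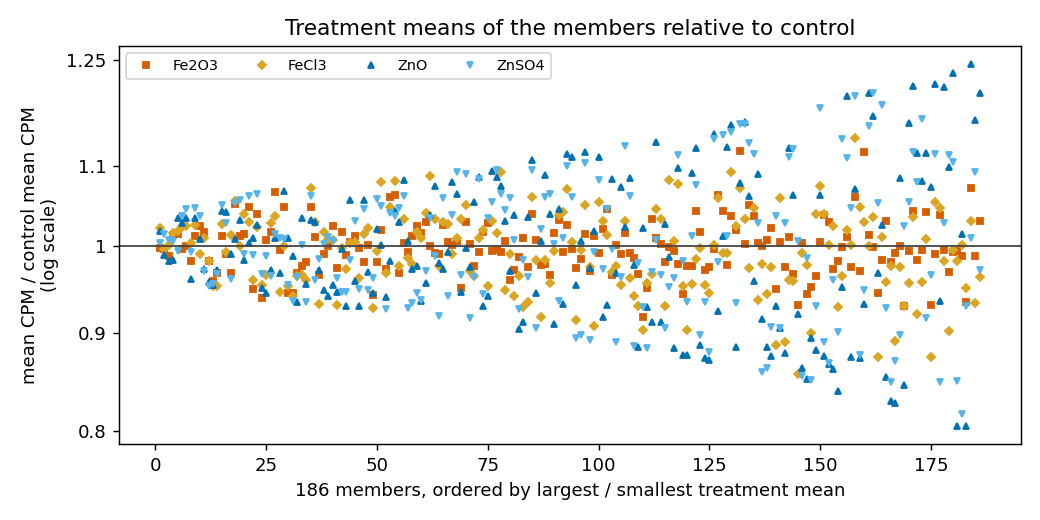
Mean CPM of each of the 186 members under Fe2O3, FeCl3, ZnO and ZnSO4 divided by its control mean (log axis), with members ordered along the x axis by the ratio of their largest to smallest treatment mean. All points lie between 0.8 and 1.25 because the rule set that limit, and the points farthest from 1 at the right are mostly those of ZnO and ZnSO4. The ZnO mean holds fewer F1 libraries than the other means, so differences between sets also move it.

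A further question is whether the same genes were also level between the sets. The comparison of F3 with F2 is the closest to such a test, because both sets hold 1 library of every treatment and so carry the same weight within each treatment mean. The comparison is not wholly free of the rule: ZnO has 3 libraries and the other treatments 4, so a gene that changed in 1 set alone moved its ZnO mean more. CYTB.2.3, high in F2, had a ZnO mean of 1109 CPM beside a control mean of 917 CPM. The difference between F3 and F2 was tested over all 62865 features that passed the filter on low counts with edgeR's quasi-likelihood test, with Benjamini-Hochberg adjustment over all of them. Of the 186 members, 120 (64.5%) differed between F3 and F2, 74 higher and 46 lower in F3, where 64.2% of all features (32.2% higher and 32.0% lower) and 69.0% of all abundant features differed. The share among the members was thus near the background. The median absolute log2 difference was 0.21 in the members, 0.54 in all features and 0.29 in all abundant features. Among the members 11 (5.91%) differed by more than 1 on the log2 scale, beside 8.41% of all abundant features.

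The balance of the directions depended on how libraries were scaled. With column totals in place of the TMM factors, 117 members differed, 53 higher and 64 lower. The median difference of all features moved from −0.0018 to −0.10 on the log2 scale, and that of the members from 0.080 to −0.018. The share of all features called with column totals was not counted, so nothing about the members is read from counts with that scaling. Under both scalings 99 members were called in the same direction, 53 higher and 46 lower, and 0 were called in opposite directions. Members named below as higher or lower in F3 were called in that direction under both scalings, unless a sentence says otherwise, and counts over a role or list are those with TMM factors. Without a test, the 5 F2 and the 5 F3 CPM values did not overlap for 90 members, 38 with F3 higher and 52 with F2 higher, beside 48.5% of all features and 52% of the abundant ones.

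Comparisons with F1 gave similar counts. Between F2 and F1, 132 members differed (71 higher and 61 lower in F2), beside 70.5% of all features (35.3% higher and 35.2% lower) and 73.8% of the abundant ones. Between F3 and F1, 138 differed (89 higher and 49 lower in F3), beside 69.4% of all features (34.8% higher and 34.6% lower) and 70.8% of the abundant ones. With column totals the split was 74 higher and 65 lower, again without a count of all features under that scaling. The rule used both comparisons in part, through the smaller number of F1 libraries in the ZnO mean. In all, 60 members were called in each of the 3 comparisons and 176 in at least 1 of them, beside 33.3% and 89.6% of all features and 37.3% and 91.9% of the abundant ones. The 10 called in none with TMM factors were ATM, COLP4ALPHA.1.2, ETG, KIFA3, OCT.3.3, RPB11, SPZ12-1, TBAT.1.2, TM9S1 and UBIQP. With column totals, ETG, OCT.3.3 and RPB11 were called lower in F3 than in F2 (log2 differences of −0.21, −0.22 and −0.19).

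Between-set differences took a median of 75.6% of a member's sum of squares of log2 CPM, and treatments, after the sets, took 7.50%. For the 58 named abundant features above the ratio, those medians were 42.8% and 36.3%, and for all abundant features 73.8% and 8.25%. The rule separated the 58 from the members by their treatment means, so nothing is read from the contrast between those groups. The coefficient of variation (CV) over the 19 libraries had a median of 13.9% in the members, while the CV between the 2 F1 libraries of the same treatment had a median of 4.12%.

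**Figure D2:**
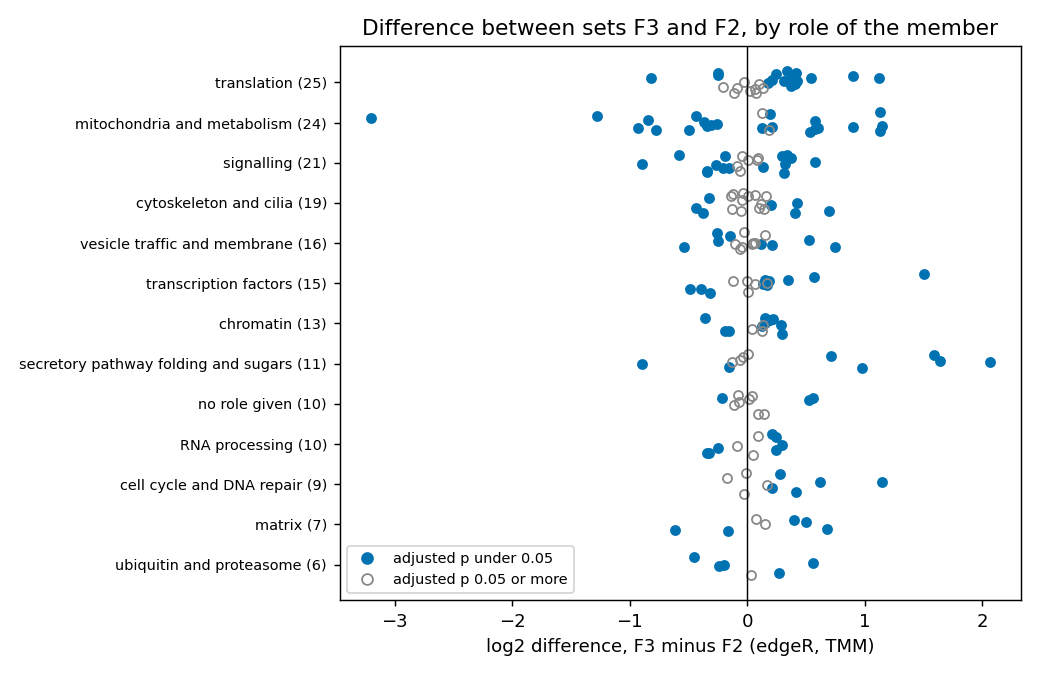
Log2 difference between F3 and F2 of every member, grouped along the y axis by the role given to its name, with filled blue points for members called at an adjusted p under 0.05 and open grey points for the others (numbers of members in parentheses). Most members lie within 1 of 0, and the members beyond that are led by HSP90B1 at 2.06 and CYTB.2.3 at −3.21.

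Values by library are given from here on in the order control, Fe2O3, FeCl3, ZnO, ZnSO4 for F2 and F3, and as lowest, median and highest of the 9 libraries for F1. Levels are not compared between genes, because the feature lengths needed for that were not used here.

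Folding proteins of the endoplasmic reticulum gave the largest differences in favour of F3. HSP90B1, the reticulum's HSP90 chaperone (also called GRP94), measured 76.7, 78.2, 77.0, 79.6 and 83.8 CPM in F2 and 331, 321, 330, 268 and 294 CPM in F3. In F1 it ran from 217 through 234 to 257 CPM. The F2 libraries were all low, the F1 libraries lay between, and no sets overlapped. The log2 difference was 2.06 ± 0.07 (SE, adjusted p = 9.16e-18), although the treatment means of the gene differed by a ratio of only 1.14.

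Calreticulin (CALRET), a calcium-binding chaperone of the same compartment, followed the same order. It measured 244, 243, 243, 321 and 341 CPM in F2, 793, 764, 754, 731 and 836 CPM in F3, and 502, 562 and 644 CPM in F1. Within F2 both zinc libraries were above the other 3, and all F2 values were below all F1 values, which were below all F3 values. The log2 difference between F3 and F2 was 1.59 ± 0.07.

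ECASTPDI, named for the calcium-storing protein disulfide isomerase described in sea urchin eggs, is present as a pair of contigs. ECASTPDI.1.2 measured 19.4, 23.1, 20.1, 22.1 and 23.6 CPM in F2 and 65.2, 69.3, 65.1, 53.5 and 62.3 CPM in F3, a log2 difference of 1.64 ± 0.07. ECASTPDI.2.2, which had the flattest treatment means of all 186 members, measured 172, 184, 186, 191 and 210 CPM in F2 and 356, 348, 357, 329 and 343 CPM in F3, a log2 difference of 0.98 ± 0.06. Both contigs were lowest in F2, intermediate in F1 and highest in F3, as HSP90B1 and CALRET were. The other members of the secretory pathway did not share the order as a group: of 11, 5 were higher in F3, 2 were lower and 4 were not called. GALT measured 26.3, 28.5, 29.3, 29.2 and 26.0 CPM in F2 and 14.7, 12.9, 15.4, 12.1 and 15.1 CPM in F3, with no overlap and a log2 difference of −0.89 ± 0.07, and ERLN2, a reticulum membrane protein, was level at 0.00 ± 0.05.

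**Figure D3:**
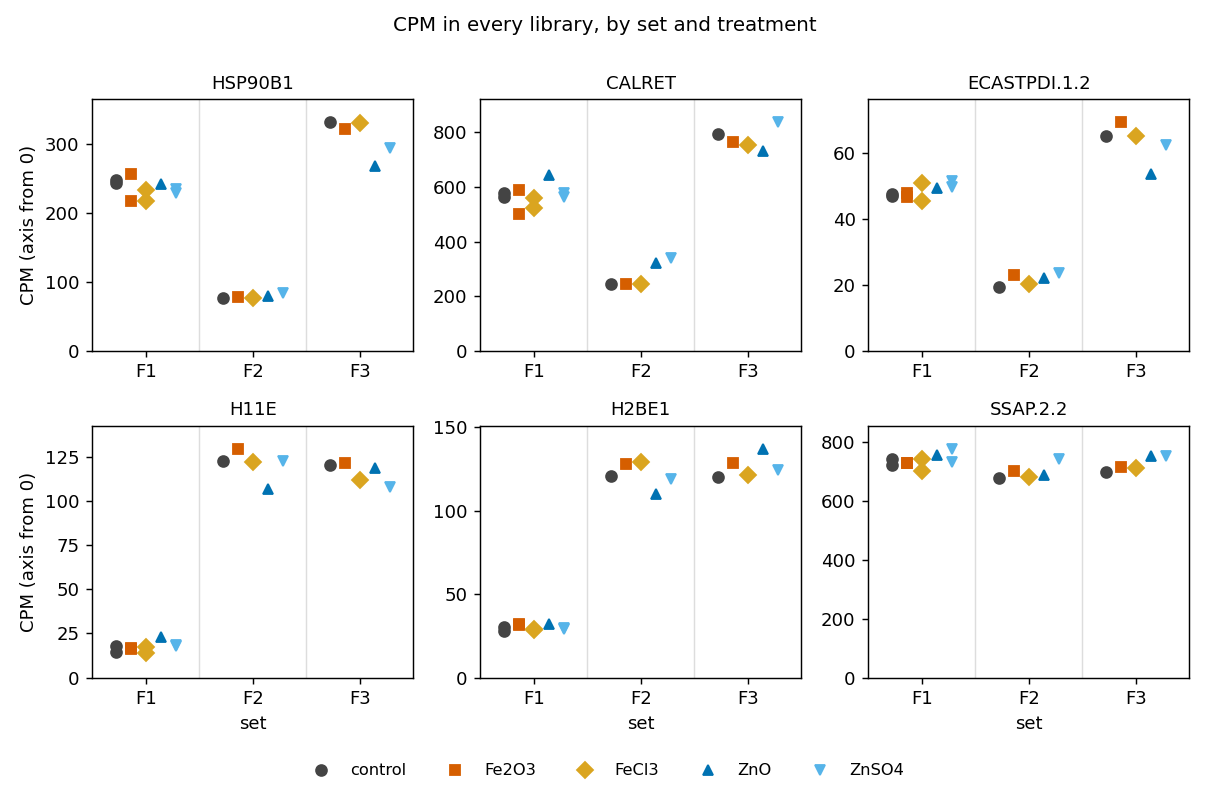
CPM in each of the 19 libraries for the reticulum genes HSP90B1, CALRET and ECASTPDI.1.2 (top) and for H11E, H2BE1 and SSAP.2.2 (bottom), by set on the x axis and by treatment in colour and marker shape. The top row is low in all 5 F2 libraries, H11E and H2BE1 are low in all 9 F1 libraries, and SSAP.2.2 stays between 680 and 777 CPM throughout.

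Histones and chromatin proteins (13 members) held some of the steadiest and some of the least steady transcripts. H11E, whose name marks a linker histone, ran from 14.2 through 17.4 to 22.9 CPM in F1, and measured 123, 129, 122, 107 and 123 CPM in F2 and 120, 121, 112, 119 and 108 CPM in F3. H2BE1, a core histone H2B, ran from 28.2 through 29.5 to 32.2 CPM in F1 and measured 121, 128, 129, 110 and 119 CPM in F2 and 120, 129, 121, 137 and 125 CPM in F3. Both were several times lower in every F1 library than in any F2 or F3 library. The log2 differences between F2 and F1 were 2.76 ± 0.08 and 1.99 ± 0.05, whereas those between F3 and F2 were 0.04 ± 0.09 and 0.15 ± 0.06 (the H2BE1 call was lost with column totals). Their CVs over the 19 libraries, 73.8% and 60.9%, were the largest after that of CYTB.2.3. Most replication-dependent histone messages carry no poly(A) tail, and these libraries were poly(A) selected; the part of that selection in the values was not tested.

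Other histone members moved far less. H2AV.2.2, a contig named for a variant of histone H2A, stayed between 4185 and 5173 CPM over the 19 libraries, with a CV of 6.25%. The contigs named for histone H3.3, the replacement variant of H3, differed in direction: H33.1.3 and H33.3.3 were higher in F3 by 0.19 ± 0.04 and 0.29 ± 0.05 on the log2 scale, and H33.2.3 was lower by a log2 difference of −0.36 ± 0.05. HMGH.2.2, an HMG protein by its name, had a CV of 5.18% and ran from 473 to 567 CPM. Over the role, 7 members were higher in F3, 3 lower and 3 not called, and 4 were higher under both scalings.

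Translation was the largest role, with 25 members, of which 13 were higher in F3, 3 were lower and 9 were not called. With both scalings, 10 stayed higher and 3 lower. RS5, the small-subunit ribosomal protein S5, measured 14.8, 16.4, 16.3, 15.7 and 19.1 CPM in F2 and 32.6, 33.9, 33.8, 30.9 and 35.6 CPM in F3, with 20.4, 21.2 and 29.0 CPM in F1. Every F3 library was above every F2 library, and the log2 difference was 1.12 ± 0.09. Most ribosomal proteins moved by less: RPL13 by 0.31 ± 0.09, RSSA by 0.34 ± 0.07, the contigs of RS15A by 0.38 ± 0.06 and 0.37 ± 0.07, and RL18B by 0.13 ± 0.06 (adjusted p = 0.0836). Not all were higher. RS23 (−0.21 ± 0.11), RT18B (−0.11 ± 0.06) and RPL36.2.3 (−0.09 ± 0.11) lay below 0 and were not called with TMM factors. With column totals RS23 and RT18B were called lower, and RL23.1.2, RL23.2.2 and RL40 lost their higher calls.

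EIF4A, the RNA helicase that unwinds messages for the ribosome, measured 614, 597, 601, 607 and 662 CPM in F2 and 715, 735, 755, 785 and 824 CPM in F3, a log2 difference of 0.41 ± 0.05. PABP, which binds poly(A) tails, went the other way, from 889, 935, 900, 936 and 958 CPM in F2 to 720, 764, 714, 724 and 714 CPM in F3, a log2 difference of −0.25 ± 0.05. The aminoacyl-tRNA synthetases also split, with SYFB (phenylalanine) higher by 0.54 ± 0.06 and SYLC (leucine) lower, with a log2 difference of −0.82 ± 0.08. SYLC fell from 80.6, 82.7, 77.7, 92.8 and 89.0 CPM in F2 to 45.2, 45.6, 39.4, 50.9 and 43.1 CPM in F3, with no overlap. BMS1, a GTPase of small-subunit assembly, rose by 0.90 ± 0.07. 4E-BP, the repressor of cap-dependent initiation that is broken down at fertilization in sea urchins, was higher in F3 by 0.41 ± 0.05.

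Of 10 members in RNA processing, 4 were higher in F3 (3 under both scalings), 3 lower and 3 not called. The differences were small, between −0.35 for the spliceosome factor PRP6 and 0.29 for FA50A on the log2 scale. SF3B3, a subunit of the splicing factor that recognises the branch site, ran only from 167 to 200 CPM over all 19 libraries, and yet it was called, at 0.25 ± 0.06. AGO1, the Argonaute protein that carries small RNAs, was lower in F3 by a log2 difference of −0.25 ± 0.05.

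The 24 members of mitochondria and metabolism were evenly divided, with 11 higher in F3, 11 lower and 2 not called; with both scalings the split was 8 and 11. CYTB.2.3, a contig named for mitochondrial cytochrome b, measured 2731, 2768, 2720, 2708 and 2812 CPM in F2 and 286, 292, 268, 270 and 275 CPM in F3. In F1 it ran from 292 through 310 to 354 CPM. F2 stood alone, and the log2 difference of −3.21 ± 0.07 between F3 and F2 was the largest of any member in size. A further contig of the name that is no member, CYTB.1.3, differed by 3.58 ± 0.08 in the opposite direction. The sum of the 3 contigs was 5819 ± 41.4 CPM in F2 and 4800 ± 75.8 CPM in F3 (SD, n = 5 each), a log2 difference of −0.28. In F1, however, that sum was 2080 ± 149 CPM (SD, n = 9), and its CV over the 19 libraries was 45.1%. CYTB.3.3 was also highest in F2, at 2738 to 2841 CPM, beside 1327 to 1389 CPM in F3.

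Nuclear genes of the respiratory chain showed set differences too. ATP5J2, a small subunit of the ATP synthase, measured 20.4, 20.8, 20.7, 18.7 and 20.5 CPM in F2, 40.4, 39.9, 44.1, 41.7 and 40.5 CPM in F3, and 14.0, 15.0 and 16.0 CPM in F1. Sets did not overlap, and the log2 difference between F3 and F2 was 1.13 ± 0.06. ATPB, the catalytic subunit of the same enzyme, differed by 0.21 ± 0.07 and was not called with column totals. CDA, cytidine deaminase, fell from 35.4, 37.2, 35.4, 36.7 and 35.9 CPM in F2 to 18.6, 18.6, 16.1, 20.1 and 20.8 CPM in F3, a log2 difference of −0.84 ± 0.06. PROD, proline dehydrogenase, fell by 0.78 on the log2 scale (SE 0.08), from 48.7 to 61.7 CPM in F2 to 27.1 to 31.8 CPM in F3. SELW, a small selenoprotein, rose by 1.13 ± 0.07, from 48.0 to 54.0 CPM in F2 to 97.5 to 110 CPM in F3.

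Among the 9 members of the cell cycle and DNA repair, 5 were higher in F3 and 4 were not called, and 3 were higher under both scalings. MSH6, a mismatch repair protein, measured 24.3, 23.0, 23.3, 22.0 and 22.6 CPM in F2 and 47.2, 44.1, 44.6, 48.7 and 53.7 CPM in F3, with 48.5, 56.9 and 58.2 CPM in F1. F2 was low in every library, and the log2 difference was 1.15 ± 0.07. CDK4 and CHK1, kinases of cell cycle entry and of the replication checkpoint, were higher in F3 by 0.62 ± 0.07 and 0.41 ± 0.07. ATM, the kinase that senses DNA breaks, was level, at −0.01 ± 0.07.

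Of 15 transcription factors, 7 were higher in F3, 3 lower and 5 not called; 2 and 3 kept those calls with both scalings. SUPAXB.2.3, a contig named for a sea urchin Pax factor, measured 26.0, 24.0, 20.9, 23.0 and 23.7 CPM in F2 and 63.2, 58.6, 54.4, 79.9 and 56.1 CPM in F3. The groups did not overlap, the ZnO library of F3 was the highest, and the log2 difference was 1.51 ± 0.10. SSAP, the activator of late histone genes described in Strongylocentrotus purpuratus, held the steadiest member of all: SSAP.2.2 ran from 701 through 732 to 777 CPM in F1, and measured 680, 703, 683, 690 and 742 CPM in F2 and 699, 716, 713, 752 and 753 CPM in F3. All 3 sets overlapped. Its largest library was 1.14 times its smallest and its CV was 3.73%, and the log2 difference of 0.15 ± 0.04 between F3 and F2 (adjusted p = 0.00436) was not called with column totals.

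Of the 19 members of cytoskeleton and cilia, 4 were higher in F3 (3 under both scalings), 3 lower and 12 not called. RIB74, a ribbon protein of ciliary doublet microtubules, rose from 115, 121, 114, 101 and 103 CPM in F2 to 169, 175, 167, 167 and 156 CPM in F3, a log2 difference of 0.69 ± 0.07. PROF.2.2, a contig of the actin-binding protein profilin, was higher by 0.42 ± 0.06, and its partner PROF.1.2 was lower, with a log2 difference of −0.33 ± 0.08. The contigs of SRC8, which binds cortical actin, were lower by log2 differences of −0.38 ± 0.07 and −0.44 ± 0.07. KIFA3 and CFA20, a kinesin-associated protein and a ciliary protein by name, had CVs of 6.46% and 5.92%.

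Of 7 matrix members, 3 were higher in F3, 2 lower and 2 not called. The fibropellins of the apical layer that coats sea urchin embryos made up the 3: FBP1.2.5 (0.68 ± 0.07), FBP3 (0.50 ± 0.08) and FBP1.3.5 (0.40 ± 0.07). SPARC.1.2, named for the collagen-binding protein, measured 243, 252, 244, 237 and 232 CPM in F2 and 140, 149, 140, 166 and 142 CPM in F3, with 82.0, 104 and 109 CPM in F1. The sets did not overlap, and the log2 difference was −0.61 ± 0.06.

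Signalling (21 members) split into 7 higher (6 under both scalings), 8 lower and 6 not called. DVR1, a ligand of the TGF-beta family, measured 142, 138, 145, 148 and 115 CPM in F2 and 67.9, 68.4, 63.3, 76.1 and 73.1 CPM in F3, a log2 difference of −0.89 ± 0.09. The catalytic subunit of protein phosphatase 2A (PP2AA) was higher by 0.32 ± 0.04. Beta-catenin (CTNB), which specifies the vegetal region of the embryo, was not called between F3 and F2 (−0.06 ± 0.05) with TMM factors. With column totals CTNB was called lower in F3 (−0.16). It was lower in F1, at 746 to 849 CPM, than in F2, at 1011 to 1199 CPM. Of 16 members of vesicle traffic, 4 were higher (2 under both scalings), 4 lower and 8 not called, with the coat-recruiting GTPase ARF1 higher by 0.52 ± 0.05 and the clathrin adaptor AP2A2 lower by a log2 difference of −0.54 ± 0.05. Of 6 members in ubiquitin and proteasome, 2 were higher (UBB and PRS6B, an ATPase of the proteasome, at 0.56 ± 0.06), 3 lower (CBLB, MIB1 and UBE2A) and 1 not called, and of 10 members with no role given, 2, 1 and 7.

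By gene lists drawn up for common functions, the members called were 1 of 4 reference genes, 10 of 15 in ribosome and translation, 3 of 4 in proteasome and ubiquitin, 1 of 1 among chaperones and 6 of 7 in energy metabolism. In the other lists they were 4 of 12 in cytoskeleton, 10 of 14 in chromatin and RNA, 4 of 7 in vesicle and membrane, and 4 of 6 in signalling and transcription. Over all named features tested, members or not, the lists had 6 of 12, 13 of 18, 5 of 7, 5 of 6, 7 of 9, 24 of 47, 23 of 32, 5 of 11 and 14 of 22 called, in the same order.

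Genes often used as references varied to different degrees. UBB, a polyubiquitin, measured 1137, 1146, 1032, 932 and 971 CPM in F2 and 1267, 1229, 1146, 1122 and 1104 CPM in F3, and ran from 1057 through 1135 to 1305 CPM in F1. The sets overlapped, and the log2 difference between F3 and F2 was 0.27 ± 0.06 (adjusted p = 0.000263). UBIQP, another ubiquitin name, measured 282, 283, 259, 223 and 234 CPM in F2 and 270, 259, 238, 222 and 230 CPM in F3, and the difference was 0.03 ± 0.06 (adjusted p = 0.711).

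SPZ12-1, a zinc finger gene used as a PCR reference in sea urchin work, measured 66.3, 62.9, 66.2, 57.4 and 57.4 CPM in F2 and 61.0, 59.8, 62.3, 56.3 and 51.7 CPM in F3. In F1 it ran from 59.1 through 62.2 to 70.0 CPM, with the ZnSO4 pair at the top. Its sets overlapped, and it was called in none of the 3 set comparisons with TMM factors. The tubulin TBB ran from 565 to 768 CPM over the 19 libraries with a difference of 0.12 ± 0.06 (adjusted p = 0.0916). TBB5 was lower in F1, at 10.6 to 20.1 CPM, than in F2 and F3, where its libraries measured 23.3 to 29.3 CPM. Over the 19 libraries, the largest value was within 1.25 times the smallest for 9 members, namely SSAP.2.2, SELM.2.2, SF3B3, HMGH.2.2, NSUN2, CFA20, KIFA3, H2AV.2.2 and OCT.3.3. It was within 1.5 times for 78 members and above 2 times for 40, up to 10.5 times in CYTB.2.3.

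Several names stand on more than 1 contig, as the suffix shows (COX6C.2.4 is the second of 4). Of 31 such names with at least 1 member, 22 had 2 or more member contigs. In 5 of the 22, COX6C, H33, NU5M, PROF and USF1, one contig was called higher and another lower in F3 with TMM factors. For USF1 the higher call, that of USF1.1.2 (log2 difference 0.14), was lost with column totals (0.037). How reads that match several contigs were counted is not given in the sources used here, so values of single contigs are uncertain, and the counts of a name were also summed.

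COX6C, a subunit of cytochrome c oxidase, has 4 contigs that are all members. COX6C.2.4 measured 27.3, 34.3, 34.2, 31.6 and 35.4 CPM in F2 and 67.2, 67.2, 66.7, 64.5 and 70.9 CPM in F3, while COX6C.4.4 measured 42.0, 41.3, 44.6, 39.04 and 46.7 CPM in F2 and 17.3, 18.2, 14.2, 16.3 and 16.1 CPM in F3. Their log2 differences were 1.15 ± 0.08 and −1.28 ± 0.07, and neither contig's groups overlapped. The 4 contigs had CVs of 9.56% to 58.5%, and their sum had a CV of 7.97%, with means of 163 ± 10.5 (SD, n = 9), 144 ± 10.3 (n = 5) and 165 ± 4.80 CPM (n = 5) in F1, F2 and F3.

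USF1, a transcription factor of the helix-loop-helix type, did likewise, with contig CVs of 12.2% and 21.3% and a sum at 7.15%. NU5M, a mitochondrial subunit of NADH dehydrogenase, had contigs at 21.8% and 23.1% and a sum at 14.9%. In the 5 names with opposed calls (with TMM factors) and 4 others of the 22, the sum had a smaller CV than each member contig. Not every name behaved in this way: the sum of the SPARC contigs kept a CV of 28.2%, between those of the contigs at 20.3% and 40.7%, and the ECASTPDI sum rose from 210 ± 15.2 CPM in F2 to 410 ± 16.5 CPM in F3 (SD, n = 5 each).

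**Figure D4:**
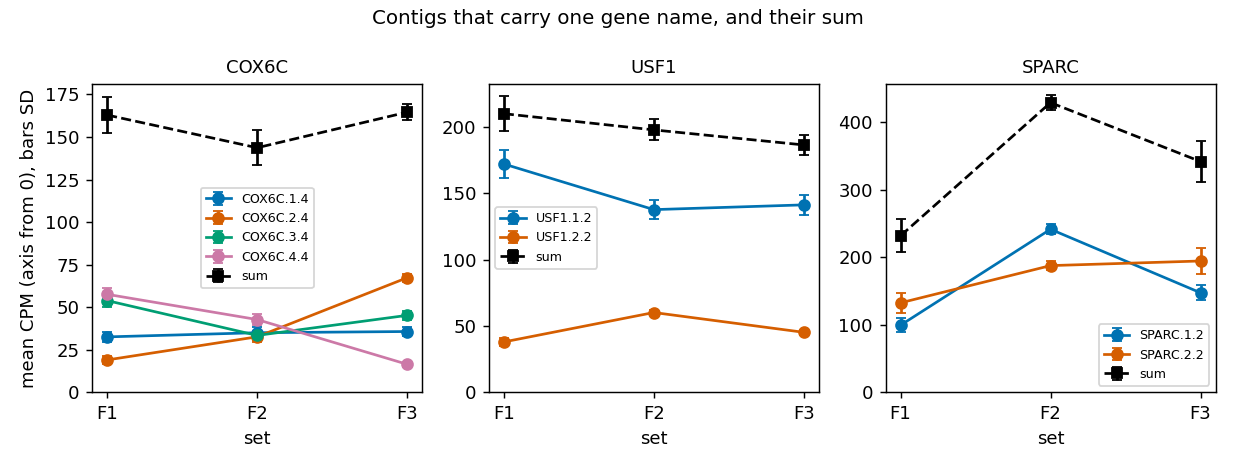
Mean CPM by set (bars SD over 9, 5 and 5 libraries) of each contig of COX6C, USF1 and SPARC, with the sum of the contigs as a dashed line. The COX6C contigs cross while their sum stays between 144 and 165 CPM, whereas the SPARC sum is 232, 429 and 342 CPM in F1, F2 and F3.

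Pooling the sets also covered differences between treatments. With the ratio of largest to smallest treatment computed inside each set, 135 members were within 1.25 in F1, 139 in F2 and 148 in F3, and 92 were within it in all 3. Since F2 and F3 have 1 library per treatment, and F1 has 1 library of ZnO, such ratios include the spread between single libraries. In 8 members the ratio passed 1.5 in at least 1 set, among them GATAE (3.19 in F1), TBB5 (1.89 in F1), DYHC2 (1.70 in F1), RS23 (1.56 in F2), SUPAXB.1.3 (1.55 in F3), RPL36.3.3 (1.53 in F1) and RPL36.2.3 (1.52 in F1).

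Whether treatment differences themselves varied between sets was tested with the 8 set-by-treatment terms, over all features. The rule did not use these terms themselves, but it kept the mean over sets nearly flat, so a member with a large difference in 1 set had to have small or opposite ones in the others. Opposed directions between sets are therefore given as a description. Only the 4 F1 pairs give a feature an error of its own in the test, with 4 residual degrees of freedom. edgeR moderated that error with the trend over all features, so the p-values rest in part on other features. Of the 186 members, 12 were called (6.45%), beside 3.93% of all features and 13.3% of all abundant features, and 41 had an unadjusted p under 0.05. Among the 12 called were GATAE, DYI2.1.2, DYHC2, FBP3, DVR1, DYHC.1.2, FBP1.3.5, SUPAXB.1.3, SPARC.2.2, SUPAXB.2.3 and RPL36.2.3. The difference from control had its widest range over the sets under ZnSO4 for 9 of the 12 and under ZnO for SPARC.2.2, SUPAXB.1.3 and SUPAXB.2.3.

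GATAE, the GATA factor of the sea urchin endoderm, had the smallest adjusted p. In F1 its controls measured 69.2 and 76.6 CPM and its ZnSO4 libraries 22.6 and 23.9 CPM, while the other 5 F1 libraries lay between 64.3 and 76.8 CPM. In F2 it measured 50.5, 51.5, 48.5, 70.1 and 74.1 CPM, and in F3 77.2, 79.4, 76.8, 73.6 and 103 CPM. ZnSO4 was thus lowest in F1 and highest in F2 and F3. The log2 ratio to control under ZnSO4 was −1.65 in F1, 0.55 in F2 and 0.41 in F3 (adjusted p of the set-by-treatment terms = 8.01e-11).

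The gut marker ENDO16 was also lowest in the F1 ZnSO4 pair, at 176 and 187 CPM, beside 497 and 547 CPM in the F1 controls. In F2 it measured 656 CPM in the control and 766 CPM with ZnSO4, and in F3 667 and 630 CPM. The aboral ectoderm gene ARS was lowest in the same pair, at 1374 and 1479 CPM beside 2360 and 2502 CPM in the F1 controls. Other markers in that pair were mixed. The apical plate gene NK2.1 was at 17.4 and 18.8 CPM beside 13.0 and 17.3 CPM in the F1 controls. Of the skeleton genes, SM37 was at 312 and 290 CPM beside 285 and 285 CPM. PM27 was at 209 and 204 CPM beside 193 and 204 CPM, and SM30 at 10.6 and 7.92 CPM beside 10.2 and 15.1 CPM. BP10 was at 40.5 and 67.6 CPM beside 79.6 and 61.5 CPM. The part of these in the GATAE values was not tested.

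Dynein genes, whose products drive ciliary beating and transport, moved in the opposite direction in F1. DYHC2 measured 63.9 and 67.8 CPM in the F1 controls and 85.8 and 97.1 CPM in the F1 ZnSO4 pair, but 96.9 and 77.1 CPM (control and ZnSO4) in F2 and 86.8 and 72.2 CPM in F3. The axonemal intermediate chain DYI2.1.2 went from 107 and 116 CPM to 152 and 154 CPM in F1, and from 105 CPM to 94.3 CPM in F2 and 91.6 CPM in F3. DYHC.1.2 had log2 ratios to control under ZnSO4 of 0.32, −0.44 and −0.24 in F1, F2 and F3. All 3 were thus above control in F1 and below it in F2 and F3, with adjusted p values of 0.00211, 0.00119 and 0.00308.

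FBP3 and FBP1.3.5, the fibropellins, were below control under ZnSO4 in F1 (log2 ratios of −0.39 and −0.17) and above it in F2 (0.23 and 0.38). DVR1 was above control in F1 (0.51) and below it in F2 (−0.31).

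Many of these calls rested on few libraries. Without both F1 ZnSO4 libraries, 1 member was called (SUPAXB.1.3, adjusted p = 0.0332) and GATAE was at 0.285. Without all ZnSO4 libraries 1 was called as well. GATAE, DYHC2 and DYI2.1.2 kept the call whichever single library was left out, and each of the other 9 lost it for at least 1 library. FBP1.3.5, FBP3, DVR1 and DYHC.1.2 lost it without the F2 ZnSO4 library (adjusted p of 0.554, 0.367, 0.167 and 0.0775). SPARC.2.2, SUPAXB.1.3 and SUPAXB.2.3 lost it without the F3 ZnO library (0.202, 0.748 and 0.819), and RPL36.2.3 without the F1 ZnO library (0.512).

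**Figure D5:**
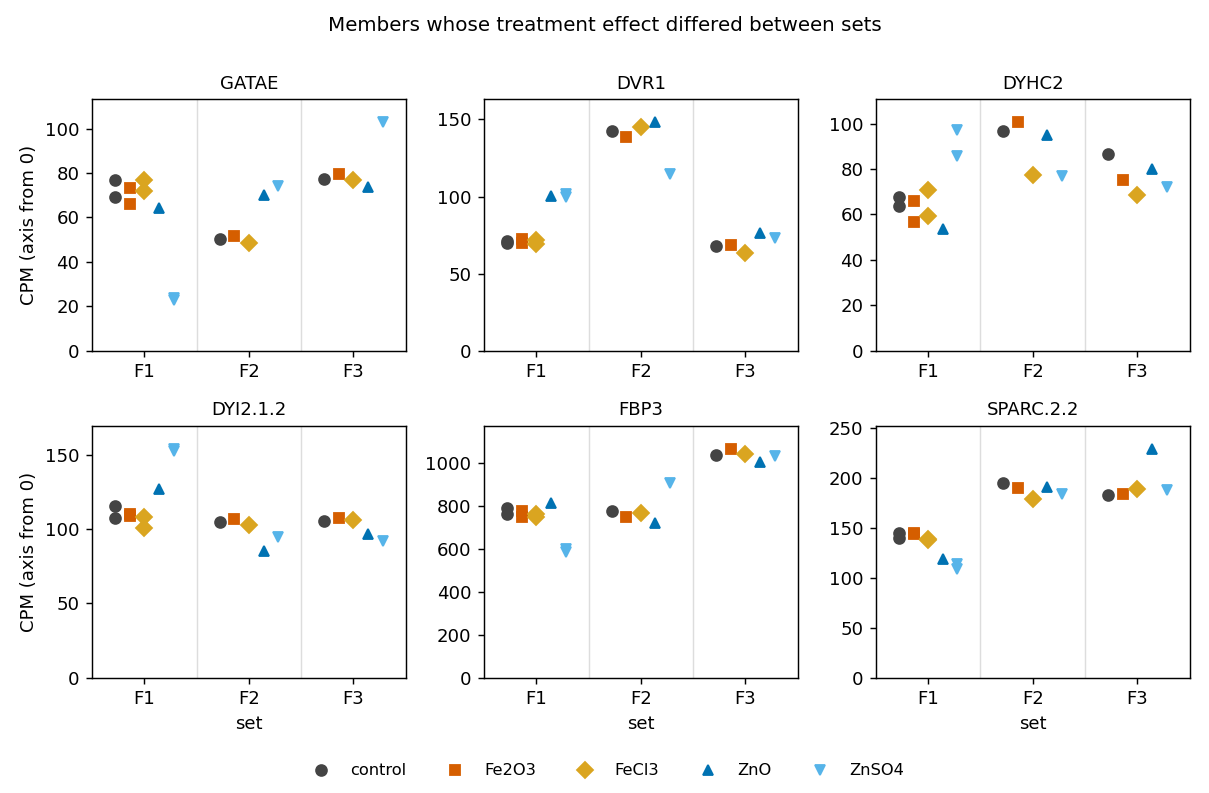
CPM in each of the 19 libraries (y axis, from 0) by set (x axis) and treatment (colour and marker) for 6 of the members called in the set-by-treatment test, GATAE, DVR1, DYHC2, DYI2.1.2, FBP3 and SPARC.2.2. The ZnSO4 points of GATAE lie at 22.6 and 23.9 CPM in F1, below all others, and at 103 CPM in F3, above all others.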

How the data were processed

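The deposited table holds the authors' raw counts (whole numbers) for 63389 features in 19 libraries. The submitters' processing notes list SAMtools 1.3.1, BWA 0.7.12-r1039 and Trim Galore 0.4.0 without saying what each did. Reference, counting tool, strand setting and the treatment of multiply matching reads were not given in the sources used here, so overlapping, antisense and near-identical features may share reads.

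Members were found by CPM from column totals. Under R 4.3.3, edgeR 4.0.16 (with limma 3.58.1) kept 62865 features by filterByExpr with treatments as groups, the 186 members among them. It used TMM factors and quasi-likelihood models, either additive in set and treatment (12 residual degrees of freedom) or with the 8 set-by-treatment terms. Benjamini-Hochberg adjustment ran over all features, and a call means an adjusted p under 0.05. A difference is given ± its standard error on the log2 scale. DESeq2 1.42.0 was an alternative. The scripts were tested on simulated counts. CV is the SD of CPM over its mean, and shares of the sum of squares use log2 CPM with a prior count of 2.

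The members, the roles and the gene lists were chosen with earlier results of these data known. Members were named for the largest differences between F3 and F2 (up to 8 in each direction), the smallest 8 and largest 6 CVs, a place in the gene lists (up to 4 each), or a set-by-treatment call. Other members named were chosen after their values were seen, and a few members enter the counts but are not reported here by name. Libraries of the same set deviated together (correlations of 0.783 to 0.916), whereas the F1 replicate numbers did not pair treatments (−0.0723 to 0.0495 over 6 pairs of treatments).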

Additional observations from a re-analysis of the deposited data

Results flagged for a closer look

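In 183 groups (61 members chosen by the naming rule, in each of 3 sets), 13 single libraries lay far from the others of their set by Dixon's criterion, where chance gives about 1 in 20. In F1 the ZnO library held 4 of them: TBB5 at 10.6 CPM (nearest other library 15.7), RAS1 at 35.1 CPM (41.2), RS5 at 29.0 CPM (24.7) and H11E at 22.9 CPM (18.4). The remaining one in F1 was SELM.2.2 in replicate 2 of ZnSO4, at 95.6 CPM (102). In F2 the ZnSO4 library stood apart for EIF4A at 662 CPM (614) and FBP3 at 909 CPM (776), and the ZnO library for ATP5J2 at 18.7 CPM (20.4). In F3 the ZnSO4 library stood apart for PROF.2.2 at 469 CPM (381) and GATAE at 103 CPM (79.4), the Fe2O3 library for PABP at 764 CPM (724) and H33.2.3 at 304 CPM (283), and the ZnO library for SPARC.2.2 at 229 CPM (189). In F2 and F3 each treatment has 1 library, and F1 has 1 library of ZnO. Such a value from a treatment with 1 library cannot be told apart from a treatment difference in that set.

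Treatment differences varied between sets, by edgeR's set-by-treatment test with Benjamini-Hochberg adjustment, for 12 members, among them the following. The adjusted p was 8.01e-11 for GATAE, 0.00119 for DYI2.1.2, 0.00211 for DYHC2, 0.00227 for FBP3, 0.00252 for DVR1 and 0.00308 for DYHC.1.2. It was 0.0098 for FBP1.3.5, 0.021 for SUPAXB.1.3, 0.0243 for SPARC.2.2, 0.0443 for SUPAXB.2.3 and 0.0469 for RPL36.2.3.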

How the results depend on the processing

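The number of members called between F3 and F2 was 120 and ran from 112 to 129 when 1 library was left out, from 120 to 133 between F2 and F1 (132), and from 128 to 139 between F3 and F1 (138). RLE factors, DESeq2, other filters and the model without treatments kept each count within 1.5 times. F1 replicate numbers mark no stated pairing, and with a replicate block the counts were 121, 128 and 133. The set-by-treatment count of 12 ran from 8 to 14 without 1 library. With DESeq2's likelihood ratio test it was 13, but RPL36.2.3 and SUPAXB.2.3 lost the call (adjusted p of 0.339 and 0.368). The count was 1 without both F1 ZnSO4 libraries and 1 without all ZnSO4 libraries, alternatives chosen after seeing the data. The members themselves numbered 153 to 190 without 1 library, 118 at a control mean of 50 CPM and 92 with the ratio required inside each set. With TMM scaling 178 features met the rule (175 of the 186 among them), and 187 with the 14-3-3 gene, whose 4-digit name the rule leaves out.

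Of 61 members named for F3 against F2, 42 kept direction and side of the threshold under every alternative, and none of the 12 set-by-treatment results did. Uncalled differences near 0 changed sign: with column totals ERLN2 (−0.096), KIFA3 (−0.095), H11E (−0.060) and UBIQP (−0.071), ERLN2 at a CPM of 2 in 4 libraries (−0.000705), and without all ZnSO4 libraries ERLN2 (−0.018) and RPL36.2.3 (0.017). Leaving out 1 library gave ERLN2 −0.0206 to 0.0352, KIFA3 −0.0202 to 0.0589, H11E −0.0519 to 0.0878, UBIQP −0.0090 to 0.0679 and RPL36.2.3 −0.179 to 0.00644. The cause was not tested. Counting error and other spread between libraries were not separated for these values.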
